A study of Mus musculus with 4 samples.

Results

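Lag3, Pdcd1, Ctla4, Tigit and Havcr2 encode inhibitory receptors of lymphocytes, and they are 5 of the 32285 genes counted in each of the 4 single-cell libraries. Their unique molecular identifiers (UMIs, each standing for 1 captured transcript) were summed in CD4 T, CD8 T, NK, B, plasmacytoid dendritic and other dendritic cells, which were gated cell by cell with marker genes. These 6 classes held 1507 of 9645 cells in BM-Ctrl, 225 of 11174 in BM-shPrmt9, 7592 of 8946 in Spleen-Ctrl and 3875 of 8065 in Spleen-shPrmt9.

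Inhibitory receptors lower the response of a T cell or NK cell that meets its ligand, and several of them are targets of antibodies used against cancer. LAG-3 resembles CD4 and binds MHC class II. PD-1, the product of Pdcd1, recruits phosphatases when it binds PD-L1 or PD-L2, and CTLA-4 competes with CD28 for CD80 and CD86. TIGIT competes with CD226 for CD155, and TIM-3, the product of Havcr2, binds galectin-9 among other ligands. These receptors appear after stimulation of T cells and stay high on exhausted T cells, while regulatory T cells carry CTLA-4 and plasmacytoid dendritic cells are known to carry LAG-3.

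All animals were C57BL/6J mice, 6 to 8 weeks old by the labels, that had received a transplant of MA9 leukemia cells, a mouse model of acute myeloid leukemia driven by the MLL-AF9 fusion. The leukemia cells, and not the host lymphocytes described here, carried a doxycycline-inducible hairpin against Prmt9 (shPrmt9) or its control (Ctrl), and doxycycline was given in the drinking water for 7 days in both arms. Bone marrow (BM) and spleen cells gave 1 library per arm and tissue, from 1 representative animal per group by the study's methods. There were thus no replicates, so no comparison between the arms was tested, every ratio compares 1 library with 1 library, and the intervals given are 95% exact intervals for counting error only. The question for these genes was how much of each receptor's RNA the immune cells held when the leukemia cells carried the hairpin against Prmt9.

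The libraries held 84009744 to 188030429 UMIs, and the median cell had 6668 UMIs in BM-Ctrl, 8567.5 in BM-shPrmt9, 6942 in Spleen-Ctrl and 10548 in Spleen-shPrmt9. Over all cells used, Prmt9 stood at 10.5 counts per 1e6 UMIs (CPM, taken over the cells of the group and library named) in BM-Ctrl and 6.89 in BM-shPrmt9, and at 13.3 in Spleen-Ctrl and 7.12 in Spleen-shPrmt9. MA9 leukemia cells, the carriers of the hairpin, passed a marker gate in 400, 7, 9 and 3 cells of these libraries, in that order. The Prmt9 levels thus do not measure the knockdown in leukemia cells, and the part of cell composition in them was not tested. The cells of the marrow libraries and those of the spleen libraries differed in sex: 4 Y-linked genes summed to 0.00584 and 0.0107 CPM in the marrow libraries against 211 and 150 CPM in the spleen libraries. Marrow and spleen of an arm could thus not be taken as coming from 1 animal, although the study describes 1 representative animal per group. Comparisons between the arms were therefore made within a tissue. Between 13 and 35 cell barcodes were shared by any pair of libraries, and at most 2 of them fell in the same gated class. Cell numbers differed between arms: B cells made up 68.2% of Spleen-Ctrl and 22.0% of Spleen-shPrmt9, where their median UMI count was 6519 and 17979.

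The gates gave 25 CD4 T cells in BM-Ctrl, 13 in BM-shPrmt9, 432 in Spleen-Ctrl and 765 in Spleen-shPrmt9, and 165, 76, 984 and 1192 CD8 T cells in that order. B cells numbered 1167, 112, 6105 and 1777, NK cells 22, 0, 52 and 119, plasmacytoid dendritic cells 124, 12, 4 and 0, and other dendritic cells 4, 12, 15 and 22. The defining markers fell where the names say: Ncr1, an NK cell receptor, was at 188 CPM in NK cells of Spleen-shPrmt9 and at 0.185 CPM in the other 5 classes, and Siglech, a receptor of plasmacytoid dendritic cells, was at 1809 CPM in that class of BM-Ctrl and at 0.689 CPM in the others. Itgax, which encodes CD11c, had 0 UMIs in the other dendritic cells of all 4 libraries, where Zbtb46, a factor of conventional dendritic cells, stood at 67.5 to 105 CPM. Of 120 values (5 genes, 6 classes and 4 libraries), 57 lay above 3 UMIs, which is the floor used here, and 41 had no UMI, 10 of them because the class had no cells in that library.

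Lag3 RNA was far higher in T cells of the shPrmt9 arm than of the Ctrl arm. Lag3 (ENSMUSG00000030124) lies on chromosome 6 from 124904361 to 124911705 on the minus strand of GRCm38. In CD4 T cells of spleen it had 13 UMIs in 7 of 432 cells of Spleen-Ctrl, or 4.56 CPM (2.43–7.80), and 899 UMIs in 353 of 765 cells of Spleen-shPrmt9, or 145 CPM (136–155). The ratio was 31.8 (18.5–59.9), and among 9962 genes with at least 20 UMIs in the 2 libraries together it was the 17th highest.

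The same held in CD8 T cells of spleen. Lag3 had 18 UMIs in 13 of 984 cells of Spleen-Ctrl (1.78 CPM, 1.05–2.81) and 1085 UMIs in 417 of 1192 cells of Spleen-shPrmt9 (74.0 CPM, 69.7–78.6). The ratio of 41.7 (26.2–70.6) ranked 11 of 11372 genes. A T cell can also yield no UMI of Cd4, Cd8a or Cd8b1 by chance of capture, and such cells are kept apart here. They had 3 Lag3 UMIs in 471 cells of Spleen-Ctrl and 1127 in 854 cells of Spleen-shPrmt9, a ratio of 176 (60.2–856).

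**Figure D1:**
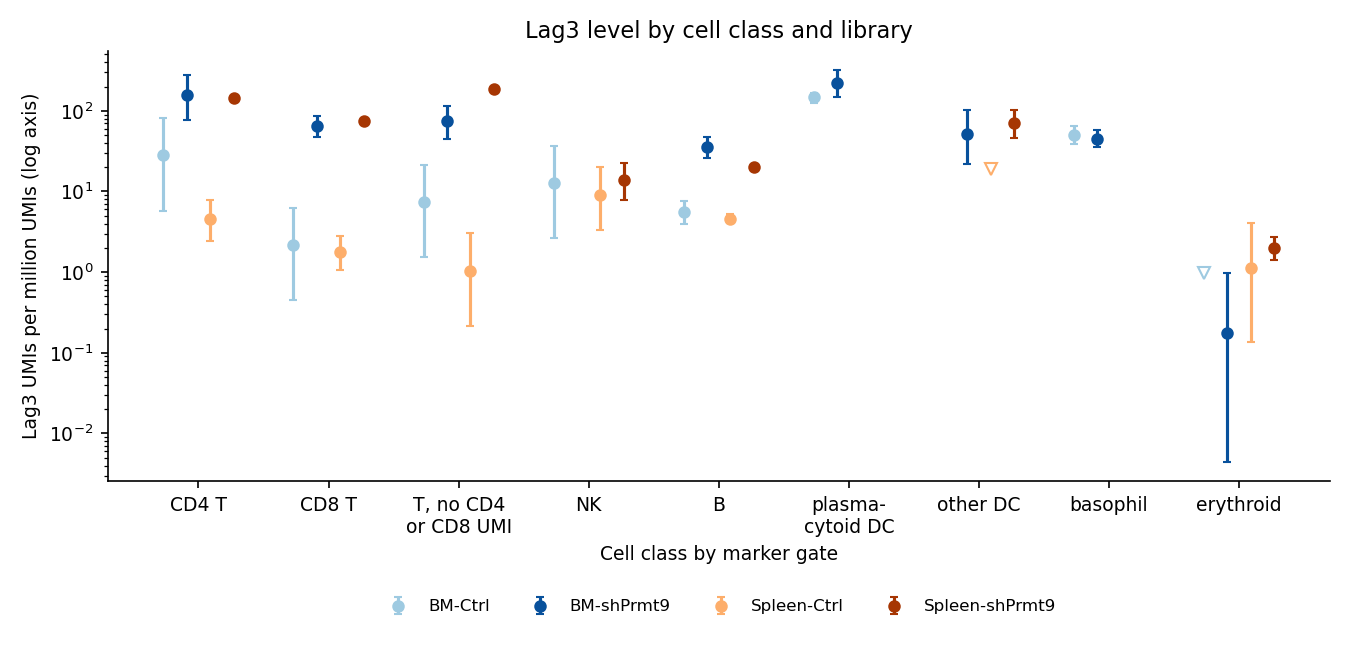
Lag3 level by cell class and library, as CPM of the class on a log axis, with bars for 95% exact Poisson intervals; open triangles give the upper limit where no UMI was seen, and classes under 10 cells are left out. The 3 T cell groups of Spleen-shPrmt9 lie between 74.0 and 184 CPM and those of Spleen-Ctrl between 1.04 and 4.56 CPM, while basophils of the 2 marrow libraries lie at 50.6 and 45.3 CPM.

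Droplets also take up free RNA, and erythroid cells, which should lack Lag3, give its size. They had 2 Lag3 UMIs in 155 cells of Spleen-Ctrl, or 1.13 CPM with an upper bound of 4.07, and 37 UMIs in 1528 cells of Spleen-shPrmt9, or 1.98 CPM with an upper bound of 2.74. In Spleen-Ctrl the Lag3 levels of CD8 T cells and of T cells without a CD4 or CD8 UMI lay below the bound of 4.07. The interval of CD4 T cells (2.43–7.80) held that bound. None of these levels could thus be told from free RNA, and the ratios built on them share that limit. Every T cell group of Spleen-shPrmt9 lay far above the bound of 2.74. To compare shares of positive cells at equal depth, each cell was thinned to 2000 UMIs, which left out 18 CD4 T and 10 CD8 T cells of Spleen-shPrmt9 and none of Spleen-Ctrl. The share of CD4 T cells with a Lag3 UMI was then 1.16% (0.377–2.68) in Spleen-Ctrl and 22.0% (19.0–25.1) in Spleen-shPrmt9, and that of CD8 T cells 0.305% (0.0629–0.888) and 12.4% (10.5–14.4). Erythroid cells of the same libraries stood at 0.704% and 0.144%. Without thinning the shares were 1.62% and 46.1% for CD4 T cells, 1.32% and 35.0% for CD8 T cells, and 1.29% and 1.77% for erythroid cells, whose median UMI counts of 10699 and 12907 exceeded those of the CD4 T cells (6196 and 7713).

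The Lag3 UMIs were spread over many T cells. Of the 765 CD4 T cells of Spleen-shPrmt9, 156 had 1 Lag3 UMI, 69 had 2, 96 had 3 to 5 and 32 had 6 or more, and the highest cell had 17, or 1.89% of the sum. Among 1192 CD8 T cells the numbers were 185, 84, 100 and 48, with 14 UMIs in the highest cell.

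**Figure D2:**
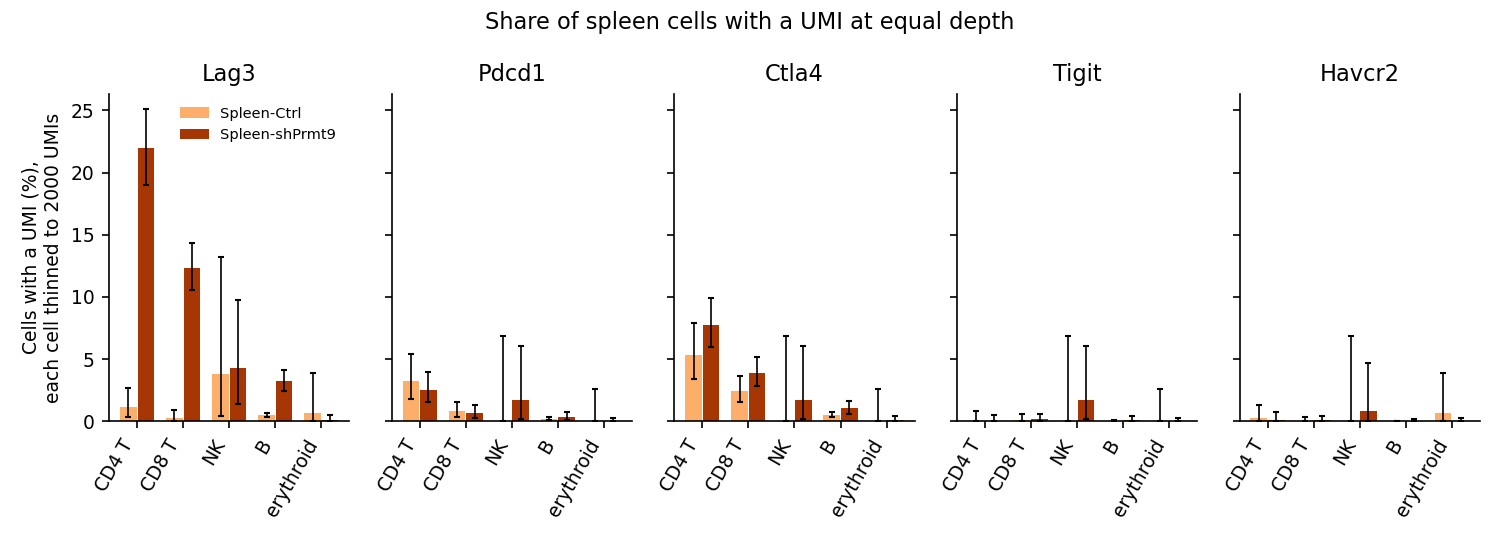
Share of spleen cells with a UMI of each receptor gene after every cell was thinned to 2000 UMIs, with bars for 95% exact binomial intervals (Clopper-Pearson), for 4 classes and for erythroid cells, which give the level of free RNA. Lag3 stands at 22.0% of CD4 T and 12.4% of CD8 T cells of Spleen-shPrmt9, and the bars of Ctrl and shPrmt9 overlap for Pdcd1 in every class.

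Bone marrow held far fewer T cells, and Lag3 was higher in the shPrmt9 arm there too. CD8 T cells had 3 Lag3 UMIs in 165 cells of BM-Ctrl (2.16 CPM, 0.446–6.32) and 45 UMIs in 21 of 76 cells of BM-shPrmt9 (64.5 CPM, 47.0–86.3), a ratio of 29.8 (9.58–150) that ranked 4 of 7307 genes. CD4 T cells had 3 UMIs in 2 of 25 cells and 11 UMIs in 4 of 13 cells, a ratio of 5.57 (1.47–31.1). Erythroid cells of the marrow libraries had 0 and 1 Lag3 UMI, with upper bounds of 0.970 and 0.986 CPM. Both T cell levels of BM-Ctrl rest on 3 UMIs, which is the floor. The interval of its CD8 T cells held the bound of 0.970, so that level could not be told from free RNA. The CD8 T ratio and its rank share that limit.

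Lag3 was also higher in B cells. In B cells of spleen, Lag3 stood at 4.59 CPM (4.03–5.20; 145 of 6105 cells) in Spleen-Ctrl and 20.003 CPM (18.6–21.5; 356 of 1777 cells) in Spleen-shPrmt9, a ratio of 4.36 (3.77–5.05) that ranked 171 of 13353 genes. The Spleen-Ctrl interval held the erythroid bound of 4.07 CPM, so that level could not be told from free RNA. The spleen ratios built on it share that limit. The thinned shares were 0.481% and 3.23%, a ratio of 6.71 (4.21–10.9). In B cells of bone marrow the levels were 5.62 and 35.5 CPM, from 39 and 47 UMIs, with a ratio of 6.32 (4.04–9.92). T cell genes moved with Lag3 inside the B cell gate: B cells of Spleen-shPrmt9 with a Lag3 UMI had 88.0 CPM of the 7 T cell markers and those without had 47.7, and their median UMI counts were 24416.5 and 16625. Among B cells of spleen with at most 1 UMI of another lineage's markers the Lag3 ratio was 4.73, from 107 and 144 UMIs.

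NK cells, the other cytotoxic lymphocytes, had 6 Lag3 UMIs in 52 cells of Spleen-Ctrl (9.15 CPM, 3.36–19.9) and 16 UMIs in 8 of 119 cells of Spleen-shPrmt9 (13.8 CPM, 7.87–22.3). The ratio of 1.504 (0.559–4.69) did not separate the libraries, and an increase of up to 4.69-fold is within counting error. Thus a ratio as large as those of spleen T cells lay outside the NK interval, but a difference between NK and T cells was not tested, since each arm has 1 library.

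Plasmacytoid dendritic cells, which release type I interferon, carried Lag3 without the hairpin in the leukemia. In BM-Ctrl 90 of 124 cells had 197 Lag3 UMIs, or 147 CPM (127–168), and 44.1% of the library's 447 Lag3 UMIs lay in them although they were 1.29% of its cells. BM-shPrmt9 had 12 such cells, of which 10 held 30 Lag3 UMIs, or 223 CPM (150–318), a ratio of 1.52 (0.999–2.24). All 4 plasmacytoid dendritic cells of Spleen-Ctrl had a Lag3 UMI, with 19 in all. The 12 and 4 cells are too few for more than these values. Other dendritic cells had 0 Lag3 UMIs in 15 cells of Spleen-Ctrl and 26 in 8 of 22 cells of Spleen-shPrmt9, 13 of them in 1 cell, which is at least 4.54-fold higher than a floor of 3 UMIs in the Spleen-Ctrl library.

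Within a library, the order of Lag3 levels differed among classes with at least 10 cells. BM-Ctrl was led by plasmacytoid dendritic cells, 5.24-fold (1.77–25.6) above CD4 T cells, and below these NK cells did not differ beyond counting error from B cells, nor B cells from CD8 T cells. In BM-shPrmt9 plasmacytoid dendritic cells and CD4 T cells did not differ (ratio 1.43, 0.697–3.17), and CD4 T cells were 2.41-fold (1.13–4.74) above CD8 T cells. In Spleen-Ctrl, NK cells led at 9.15 CPM, and NK, B and CD4 T cells did not differ beyond counting error. CD4 T cells were 2.57-fold (1.16–5.54) above CD8 T cells. However, the intervals of NK, B and CD4 T cells held the erythroid bound of 4.07 CPM, and CD8 T cells lay below it. None of these levels could be told from free RNA, so this order is not resolved. The 4 plasmacytoid dendritic cells of Spleen-Ctrl, too few for this order, stood at 396 CPM (239–619). In Spleen-shPrmt9 the CD4 T cells led, 1.96-fold (1.79–2.14) above CD8 T cells, which stood level with other dendritic cells (ratio 1.05, 0.716–1.62), and these were 3.51-fold (2.28–5.18) above B cells. B cells held 65.2% of the 379 Lag3 UMIs of Spleen-Ctrl and 16.6% of the 4613 of Spleen-shPrmt9, while CD4 T cells held 3.43% and 19.5% and CD8 T cells 4.75% and 23.5%. Over T cells of all kinds, with and without a CD4 or CD8 UMI, the level in spleen was 2.19 and 116 CPM, a ratio of 52.9 (38.1–75.6).

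Pdcd1 did not follow Lag3. Pdcd1 (ENSMUSG00000026285, chromosome 1 from 94038305 to 94052553, minus strand) had 77 UMIs in 28 of 432 CD4 T cells of Spleen-Ctrl (27.0 CPM, 21.3–33.8) and 107 in 34 of 765 of Spleen-shPrmt9 (17.3 CPM, 14.1–20.8). The ratio was 0.639 (0.472–0.867), short of the 2-fold mark used here. CD8 T cells of spleen stood at 5.53 and 5.80 CPM, with a ratio of 1.05 (0.740–1.498). At equal depth the share of CD4 T cells with a Pdcd1 UMI was 3.24% and 2.54%, and the ratio of shares of 0.785 (0.373–1.69) did not separate the libraries.

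In bone marrow, 8 of 25 CD4 T cells of BM-Ctrl and 6 of 13 of BM-shPrmt9 had a Pdcd1 UMI, and the ratio of 1.67 (0.870–3.23) did not separate the libraries. CD8 T cells stood at 31.0 CPM (43 UMIs in 14 of 165 cells) and 51.6 CPM (36 UMIs in 13 of 76 cells), a ratio of 1.67 (1.04–2.65). B cells of spleen had 1.65 and 2.72 CPM, a ratio of 1.64 (1.23–2.21) over 34 and 41 positive cells. Of 124 and 12 plasmacytoid dendritic cells of bone marrow, none had a Pdcd1 UMI, which in BM-Ctrl allows a share of up to 2.42% of cells with a UMI (3 counts of the total).

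Most T cells of Spleen-shPrmt9 that held Lag3 RNA held no Pdcd1 RNA at this depth: in thinned cells, Pdcd1 was seen in 5 of 164 Lag3-positive CD4 T cells (3.05%) and in 14 of 583 negative ones (2.40%), and in 1 of 146 and 7 of 1036 CD8 T cells.

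Ctla4, whose product takes CD80 and CD86 from CD28, was not past 2-fold in spleen. Ctla4 (ENSMUSG00000026011) spans 60887000 to 60915832 of chromosome 1, plus strand. CD4 T cells had 124 UMIs in 53 cells of Spleen-Ctrl (43.5 CPM, 36.2–51.9) and 281 in 162 cells of Spleen-shPrmt9 (45.3 CPM, 40.2–50.9), a ratio of 1.04 (0.840–1.30). CD8 T cells stood at 12.2 and 17.4 CPM, a ratio of 1.42 (1.14–1.78). Cells with a UMI of Foxp3, the regulator of regulatory T cells, held 10 Ctla4 UMIs in 6 CD4 T cells of Spleen-Ctrl and 19 in 5 of Spleen-shPrmt9.

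In bone marrow the Ctla4 ratio was past 2-fold at full depth in CD8 T and B cells. CD8 T cells had 22 UMIs in 17 of 165 cells (15.8 CPM, 9.93–23.995) and 30 UMIs in 17 of 76 cells (43.0 CPM, 29.0–61.4), a ratio of 2.71 (1.51–4.94). With cells thinned to 2000 UMIs that ratio was 1.501 in a random draw, from 10 and 7 UMIs. In the draw used for the shares, 4 of 163 and 7 of 76 cells kept a Ctla4 UMI. Their ratio of shares was 3.75 (0.954–17.5). The draws lay on both sides of 2.71, so the ratio was not resolved at equal depth. B cells had 12 UMIs in 4 of 1167 cells and 13 in 7 of 112 cells, a ratio of 5.68 (2.39–13.6) that rests on few cells. Of the 12 UMIs in BM-Ctrl, 6 came from 1 cell. In thinned CD8 T cells of Spleen-shPrmt9, Lag3 was seen in 12 of 46 cells with Ctla4 (26.1%, 14.3–41.1) and in 134 of 1136 without (11.8%, 9.98–13.8).

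Tigit was rarely captured. Tigit (ENSMUSG00000071552, chromosome 16 from 43648867 to 43664146, minus strand) had 1 and 6 UMIs in CD4 T cells and 3 and 11 in CD8 T cells of Spleen-Ctrl and Spleen-shPrmt9. NK cells of spleen stood apart, with 0 UMIs in 52 cells of Spleen-Ctrl, a count of 0 for which 3 counts set the limit at 5.77% of cells with a UMI, and 18 UMIs in 16 of 119 cells of Spleen-shPrmt9 (15.5 CPM, 9.18–24.5), or 13.4% of cells. The level was at least 3.38-fold higher than a floor of 3 UMIs in the Spleen-Ctrl library. At 2000 UMIs per cell only 2 of 116 NK cells of Spleen-shPrmt9 and 0 of 52 of Spleen-Ctrl kept a Tigit UMI, so the shares were not resolved at equal depth. Tigit was in 2 of 6105 B cells of Spleen-Ctrl and 13 of 1777 of Spleen-shPrmt9, where erythroid cells had 1 UMI in 1528 cells.

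Havcr2 was rarely captured in T cells too. Havcr2 (ENSMUSG00000020399, chromosome 11 from 46454935 to 46481255, plus strand) had 1 and 2 UMIs in CD4 T cells of Spleen-Ctrl and Spleen-shPrmt9. CD8 T cells had 1 UMI and 22 UMIs, a ratio of 15.2 (2.46–628), but 15 of the 22 came from 1 cell, and only 6 of 1192 cells had any. The ratio of 15.2 is therefore not a difference spread over the CD8 T cells. NK cells had 4 UMIs in 3 of 52 cells and 10 in 9 of 119 cells, a ratio of 1.41 (0.407–6.16). In bone marrow, CD4 T cells had 0 Havcr2 UMIs in 25 and 13 cells, and B cells 0 in 1167 and 112. For the CD4 T cells a limit of 3 counts of the total allows up to 12.0% and 23.1% of cells with a UMI.

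**Figure D3:**
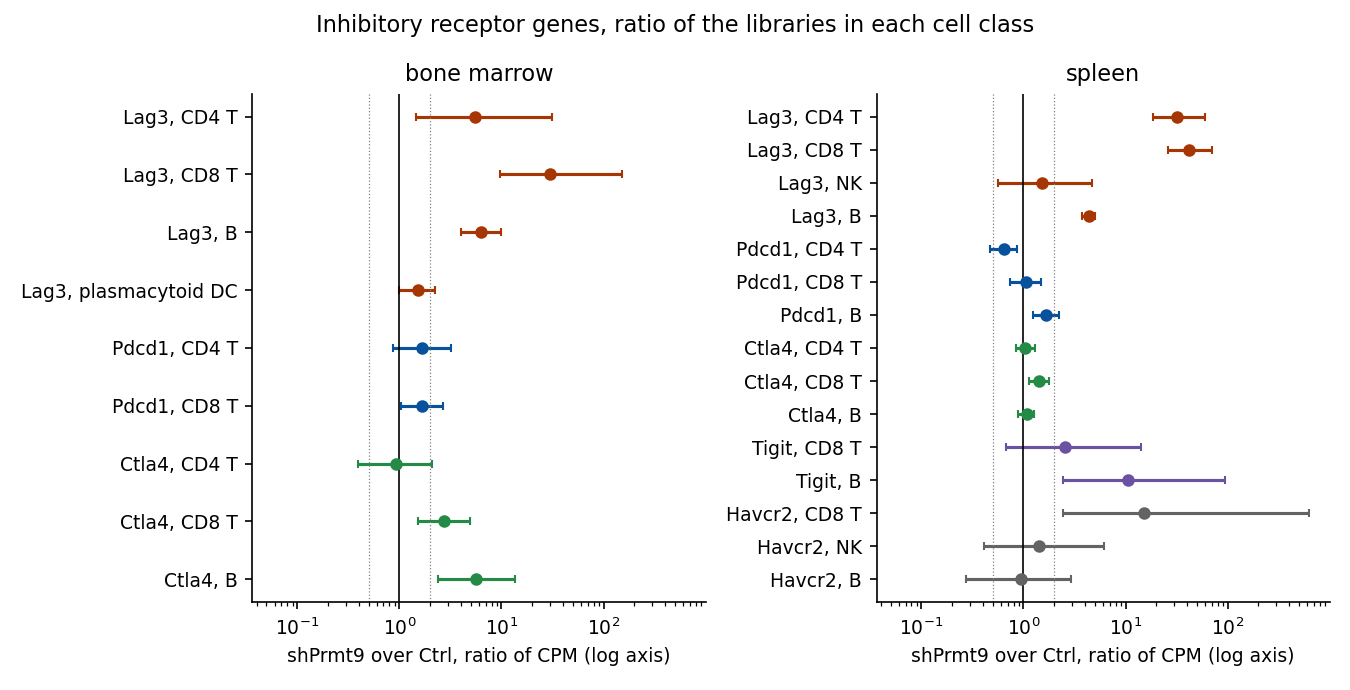
Ratio of shPrmt9 to Ctrl for receptor genes in CD4 T, CD8 T, NK, B and plasmacytoid dendritic cells, on a log axis with 95% exact binomial intervals of the ratio. A ratio is shown where both libraries had UMIs and together at least 10, and other dendritic cells are left out. The solid line marks no difference and the dotted lines 2-fold. Lag3 ratios in T cells of spleen (31.8 and 41.7) lie to the right of every Pdcd1 and Ctla4 ratio, and the widest bar is that of Havcr2 in CD8 T cells.

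Each gene was then read against all genes of the same cells. A gene was called when its CPM ratio was at least 2 or at most 0.5, among genes with at least 20 UMIs in the 2 libraries together, in the 6 comparisons with at least 50 cells in both. In CD4 T cells of spleen 5.67% of genes were called higher and 7.84% lower, and of the 3 receptor genes that could be compared 1 (Lag3) was higher and none lower. For CD8 T cells of spleen 4.95% and 7.03% of genes were called, and of 4 receptor genes Lag3 and Havcr2 were higher and none lower. The CD8 T cells of bone marrow had 3.97% of genes higher and 4.97% lower, with Lag3 and Ctla4 of 3 receptor genes higher.

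The remaining classes were alike in having no receptor gene called lower. B cells of spleen had 5.15% of genes called higher and 15% lower, with Lag3 of 3 receptor genes higher, and those of bone marrow 3.79% and 6.7%, with Lag3 and Ctla4, the 2 that could be compared, higher. NK cells of spleen had 12.2% of genes called higher and 3.26% lower, and Lag3, the 1 receptor gene compared, was not called. In all, 8 values were past 2-fold upward, 5 of them those of Lag3. With at most 4 receptor genes to compare in a class, these counts only describe which genes moved.

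**Figure D4:**
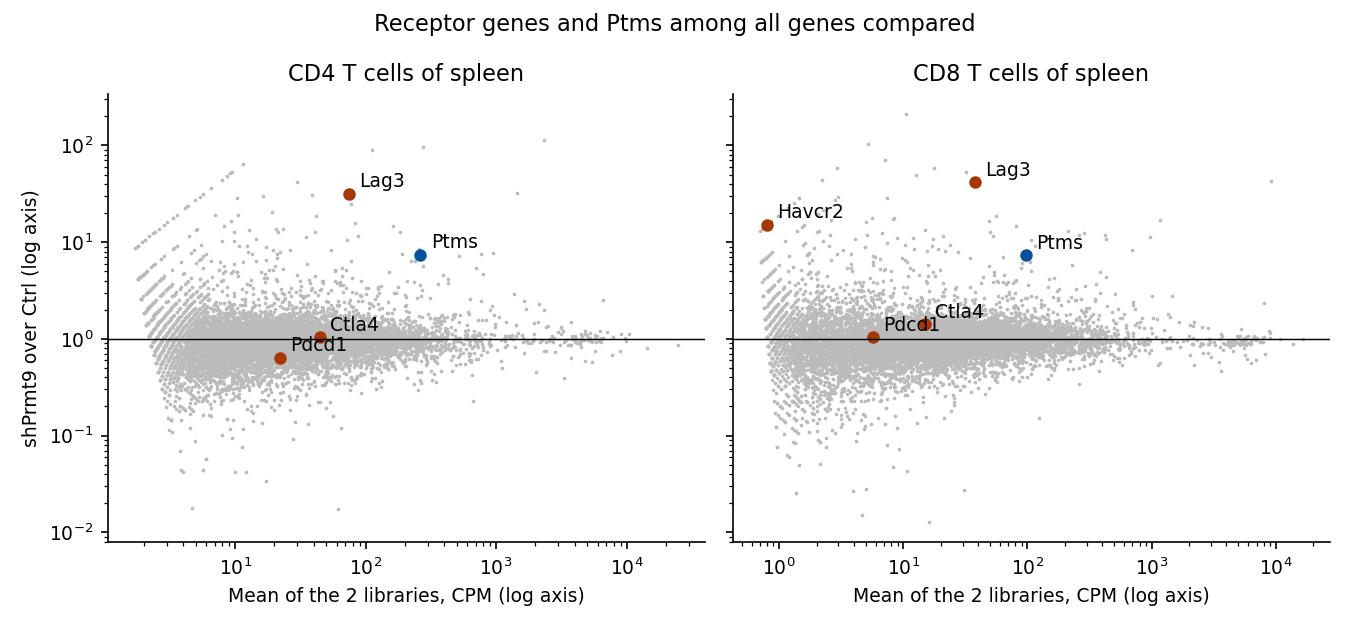
Ratio of Spleen-shPrmt9 to Spleen-Ctrl against the mean CPM of the 2 libraries for each gene with at least 20 UMIs (both axes log), in CD4 and CD8 T cells, with the receptor genes and Ptms marked. Lag3 (31.8 and 41.7) and Ptms (7.43 and 7.41) lie above the 2-fold line, and Pdcd1 (0.639 and 1.05) and Ctla4 (1.04 and 1.42) lie near 1.

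The gene next to Lag3 was also higher in T cells. Ptms, which encodes parathymosin, a small acidic nuclear protein, lies on the same strand from 124913681 to 124920103, and its end is 1975 bases upstream of the start of Lag3. Over 13 profiles (each class in each library with at least 30 cells), Ptms had the highest correlation with Lag3 of 11951 genes (Pearson r = 0.942 on log2(CPM + 10), a description, since profiles of a library share its preparation and depth). In CD4 T cells of spleen Ptms stood at 62.5 and 464 CPM, a ratio of 7.43 (6.39–8.69), and in CD8 T cells at 23.1 and 171 CPM, a ratio of 7.41 (6.48–8.51). CD8 T cells of bone marrow had a Ptms ratio of 9.43 (6.19–14.9). In B cells, as in these T cells, the Ptms ratio was below that of Lag3, at 1.27 (1.20–1.34) in spleen and 2.43 (1.89–3.11) in bone marrow.

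Where Lag3 was high without the hairpin, Ptms was high too, at 441 CPM in plasmacytoid dendritic cells of BM-Ctrl. In NK cells of spleen, where the Lag3 interval included 1, Ptms stood at 62.5 and 117 CPM, a ratio of 1.87 (1.31–2.72). CD4 T cells of Spleen-shPrmt9 with a Lag3 UMI had 616 CPM of Ptms and those without had 320. Cd4, whose gene starts 16139 bases on the other side of Lag3, was at 246 and 219 CPM in CD4 T cells of spleen, a ratio of 0.888 (0.810–0.974), although every cell of that class was chosen for a Cd4 UMI. The genes next in likeness were Ppm1l (r = 0.907), Ctdnep1 (0.900), Bdp1 (0.891), Cep192 (0.885), 9530068E07Rik (0.869), Kdm4a (0.868), Rrbp1 (0.864), Inf2 (0.859) and Mycl (0.859). Pdcd1 and Ctla4 had an r of 0.0500 and 0.288 with Lag3.

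Because Ptms moved with Lag3, its promoter is shown beside that of Pdcd1, which did not. Both are RefSeq windows on GRCm38.p6, read 5′ to 3′ on the gene's minus strand, from 250 bases before the RefSeq start to 50 after it. They lie at chr6:124917897-124918196 and chr1:94052504-94052803, and no window of Lag3 was used here. The Ptms window lies inside the gene span given above (124913681 to 124920103). The RefSeq start of Ptms thus differs from the gene start in the annotation used for positions. Capitals would mark a match on either strand to the interferon-stimulated response element or to AAAGGTCA (a site of NR4A factors).
Ptms: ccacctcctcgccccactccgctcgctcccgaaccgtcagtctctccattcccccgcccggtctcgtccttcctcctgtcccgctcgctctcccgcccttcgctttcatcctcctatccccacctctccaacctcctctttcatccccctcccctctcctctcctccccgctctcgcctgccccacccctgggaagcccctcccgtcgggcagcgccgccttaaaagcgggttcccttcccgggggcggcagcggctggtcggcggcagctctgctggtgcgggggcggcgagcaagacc
Pdcd1: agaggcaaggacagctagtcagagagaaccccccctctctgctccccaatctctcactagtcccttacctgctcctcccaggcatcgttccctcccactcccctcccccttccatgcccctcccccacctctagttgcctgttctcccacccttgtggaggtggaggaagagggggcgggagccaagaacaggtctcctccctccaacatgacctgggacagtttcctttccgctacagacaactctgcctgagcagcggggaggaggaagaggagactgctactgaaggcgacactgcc
Neither window held a match to either motif, nor did those of Ctla4, Tigit and Havcr2. Of 32851 promoter windows of this length, 3.44% held the first motif and 1.51% the other. G and C made up 70.3% of the Ptms window and 60.7% of the Pdcd1 window.

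The other genes of these pathways were read from 7 lists. All list counts below stand against the shares of all genes called. These were 5.67% higher and 7.84% lower in CD4 T cells of spleen, and 4.95% and 7.03% in CD8 T cells of spleen. With few genes per list, the counts only describe which genes moved. Interferon-stimulated genes stood out: 12 of 19 were called higher and 1 lower in CD4 T cells of spleen, with a median log2 ratio of 1.62 against -0.07 over all genes, and 14 higher and 1 lower of 19 in CD8 T cells (median 1.86). Rsad2, which encodes the antiviral protein viperin, stood at 5.96 and 149 CPM in CD4 T cells, a ratio of 24.9 (15.5–43.0), and Ifit1, an RNA-binding antiviral protein, at 127 and 922 CPM, a ratio of 7.26 (6.52–8.09). In CD8 T cells Ifi44 was at 0.592 and 10.6 CPM and Cmpk2, a mitochondrial nucleotide kinase, at 4.05 and 34.3 CPM. The list was also high where Lag3 was not resolved: in NK cells of spleen 13 of 14 were called higher and 0 lower.

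A cell without a Lag3 UMI can still hold Lag3 RNA that was not captured. In Spleen-shPrmt9, 156 of the 353 CD4 T cells with Lag3 had a single UMI. With that limit, T cells of this library with and without a Lag3 UMI held nearly equal sums of the list of interferon-stimulated genes. Its 19 genes summed to 10235 CPM in the 353 CD4 T cells with Lag3 and to 10206 CPM in the 412 without, a ratio of 1.003 (0.987–1.02), and in CD8 T cells to 8495 and 8871 CPM (ratio 0.958, 0.947–0.969). In other classes and libraries the sums differed more, with a ratio of 1.36 (1.25–1.49) in CD8 T cells of BM-shPrmt9, 1.19 (1.13–1.25) in plasmacytoid dendritic cells of BM-Ctrl and 0.524 (0.457–0.599) in B cells of BM-Ctrl. Of the genes of T cell stimulation, chosen by hand with earlier results known, some differed between T cells of Spleen-shPrmt9 with and without Lag3 and others did not. Tnfrsf4, which encodes the costimulatory receptor OX40, was at 311 CPM with Lag3 and 191 without in CD4 T cells (ratio 1.63, 1.47–1.81) and at 34.4 and 14.6 CPM in CD8 T cells (2.35, 1.88–2.96). Il2ra, the alpha chain of the interleukin-2 receptor, had ratios of 1.65 (1.32–2.07) and 2.32 (2.07–2.59). Cd69, an early activation marker, had ratios of 1.39 (1.28–1.504) in CD4 T cells and 1.03 (0.983–1.09) in CD8 T cells, and Icos, a costimulatory receptor, 1.05 (0.882–1.25) and 1.90 (1.66–2.18). In CD8 T cells of BM-shPrmt9 the intervals of Cd69 (0.849, 0.653–1.09), Il2ra (1.10, 0.497–2.27) and Icos (1.45, 0.686–2.93) included 1.

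Nr4a1, an early gene of T cell receptor signalling, had 58 UMIs in CD4 T cells with Lag3 and 2 in those without, a ratio of 30.6 (8.10–259), and 123 and 37 in CD8 T cells, a ratio of 5.35 (3.68–7.96). Of the 60 Nr4a1 UMIs in CD4 T cells, 20 came from 1 cell, and 25 of the 27 cells with a Nr4a1 UMI also had a Lag3 UMI. Ccr7, the lymph node homing receptor of naive T cells, was also higher with Lag3, by 1.28-fold (1.20–1.37) in CD4 and 1.66-fold (1.59–1.73) in CD8 T cells. Cells with a Lag3 UMI were slightly deeper, with a median of 7974 against 7554 UMIs in CD4 and 11685 against 10523 in CD8 T cells. The part of depth in these ratios was not tested.

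Activation markers and T cell transcription factors moved in both directions between the arms. Of 8 activation markers compared in CD4 T cells of spleen 3 were called higher and 1 lower, and in CD8 T cells 2 and 2. Cd69, an early activation marker that interferon also induces, stood at 60.7 and 387 CPM in CD4 and at 129 and 449 CPM in CD8 T cells. Il2ra was at 18.2 and 90.0 CPM in CD8 T cells, a ratio of 4.95 (4.24–5.81). Mki67, a gene of dividing cells, fell in CD8 T cells, at 15.7 and 0.751 CPM, a ratio of 0.0478 (0.0234–0.0879).

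Of 18 exhaustion and T cell transcription factors 3 were called higher and 4 lower in CD4 T cells, and 4 and 2 in CD8 T cells. Irf4, which scales with T cell receptor signal, was at 14.0 and 49.8 CPM in CD4 and at 4.84 and 38.8 CPM in CD8 T cells. Nr4a3 was at 1.38 and 9.96 CPM and Nr4a2 at 1.18 and 6.41 CPM in CD8 T cells. Tox, a factor of exhausted T cells that is named here after its values were seen, was not called, at 48.1 and 28.1 CPM in CD4 (ratio 0.584) and at 21.7 and 11.9 CPM in CD8 T cells (ratio 0.547).

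Several other inhibitory receptors were lower in T cells of spleen. In CD4 T cells of spleen 0 of 8 were called higher and 4 lower, with a median log2 ratio of -0.94, and in CD8 T cells 0 of 12 higher and 6 lower (median -0.73). In CD8 T cells of bone marrow 0 of 6 were called in either direction, and in NK cells of spleen 2 of 8 were higher and 3 lower. Cd160 was at 5.03 and 0.955 CPM and Lair1, a collagen receptor, at 8.00 and 1.84 CPM in CD8 T cells, and Cd200r1 at 7.72 and 1.93 CPM in CD4 T cells. Cd22 is a B cell gene, and its 4.05 and 0.614 CPM in CD8 T cells moved with the B cell share of the libraries (68.2% and 22.0%), and the part of B cell RNA in it was not tested.

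Costimulatory receptors and signalling genes were mostly not called. Of 10 costimulatory receptors 0 were called higher and 1 lower in CD4 T cells, and 2 and 1 in CD8 T cells. Over all genes 5.67% were called higher and 7.84% lower in CD4 T cells, and 4.95% and 7.03% in CD8 T cells. Cd40lg, the helper T cell ligand of CD40, was at 47.4 and 12.3 CPM in CD4 T cells. Cd226, the activating partner of TIGIT, was at 55.1 and 19.9 CPM in CD8 T cells. Tnfrsf9, which encodes 4-1BB, was at 37.9 and 81.6 CPM in CD8 T cells. In the signalling and shedding list 0 of 13 genes were called higher and 2 lower in CD4 T cells, and 0 and 2 of 12 in CD8 T cells. These were Trat1 and Ptpn6, the latter the gene of the phosphatase SHP-1, at 59.6 and 28.1 CPM in CD4 T cells. Adam10 and Adam17, the proteases that cut LAG-3 from the cell surface and named here after their values were seen, had ratios of 0.889 and 0.854 in CD4 and of 0.988 and 1.04 in CD8 T cells.

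The ligands of the 5 receptors differed on the B cells that could present them. In B cells of spleen 1 of 12 ligand genes was called higher and 5 lower, against 5.15% and 15% of all genes. H2-Aa, an MHC class II chain and so part of the ligand of LAG-3, fell from 2085 CPM in the Ctrl to 469 CPM in the shPrmt9 library (ratio 0.225), and Cd80, a ligand of CTLA-4, at 2.66 and 13.7 CPM (ratio 5.17). In T cells, 3 of 11 ligand genes were called higher and 0 lower for CD4 and 2 and 3 for CD8. H2-Aa and H2-Ab1 were at 42.5 and 8.73 CPM and at 43.8 and 13.03 CPM in CD8 T cells. These values moved with the B cell share of the libraries (68.2% and 22.0%), and the part of B cell RNA in them was not tested. Pdcd1lg2, which encodes PD-L2, was at 1.68 and 6.55 CPM in CD8 T cells, a ratio of 3.90 (2.32–6.98).

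In spleen most T cells held RNA of at most 1 of the 5 receptor genes. At full depth 363 of 432 CD4 T cells of Spleen-Ctrl held none, 51 held 1, 15 held 2 and 3 held 3. In Spleen-shPrmt9, 326 of 765 held none, 336 held 1, 90 held 2, 11 held 3 and 2 held 4. Among CD8 T cells of Spleen-shPrmt9, 392 held exactly 1, 106 held 2, 5 held 3 and 1 held 4, against 96, 11, 2 and 0 in Spleen-Ctrl. Among CD4 T cells of bone marrow, 6 held 2 and 1 held 3 of the 25 of BM-Ctrl, and 6 held 2 and 1 held 3 of the 13 of BM-shPrmt9. No cell of either class held all 5.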

How the data were processed

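Bone marrow and spleen cells were measured by 10x 3′ single-cell RNA sequencing, with 1 library per arm and tissue. The authors deposited filtered matrices of UMI counts per gene and cell, made with Cell Ranger (version 6.1.1 in the submitters' processing notes, 6.0.2 in the matrix headers) on mm10, and these raw counts were used unchanged. Cells were used if they had 200 genes or more and no more than 20% of UMIs from mitochondrial genes (8065 to 11174 per library). A cell entered a class when it held at least 2 of the class's markers and at least 3 times the UMIs of every other marker list. CPM is UMIs of a gene per 1e6 UMIs of the class in the library. Intervals are exact Poisson (levels), exact conditional binomial (ratios) and Clopper-Pearson (shares), all 95%, and cover counting error only. Because each group is 1 library, no test, p-value or SE was computed, and genes past 2-fold with at least 20 UMIs were called. The limit of 50 cells per arm for comparing a class was set after the cell numbers were seen. No doublets were removed: Scrublet's own threshold marked 128, 0, 1 and 190 cells, so the highest-scoring cells were left out as an alternative. The receptor genes, markers and gene lists were chosen with earlier results of these data known. Genes named were the 5 receptors, up to 4 called genes per list by size of ratio in spleen T cells, the 10 genes most correlated with Lag3 and its neighbours, and others are said to have been chosen later. Positions came from a GRCm38 annotation that matched 32158 of 32285 gene IDs, and promoter windows from RefSeq. Python 3.11.15, numpy 2.4.6, scipy 1.17.1, pandas 2.3.3, scanpy 1.11.5 (Scrublet), R 4.3.3 and edgeR 4.0.16 (TMM factors, as an alternative scaling only) were used. The ratio intervals were run on simulated independent Poisson counts, the kind of spread they assume. That run says nothing about UMIs that cluster in single cells. Some results on T cell states and on 1 promoter motif are not reported here.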

Additional observations from a re-analysis of the deposited data

Results flagged for a closer look

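Lag3 was seen in neutrophils of spleen, a class outside the 6 described: 68 UMIs in 37 of 542 cells of Spleen-shPrmt9, or 6.76 CPM (5.25–8.57), against 1 UMI in 64 cells of Spleen-Ctrl (0.852 CPM), a ratio of 7.94 (1.38–318). Erythroid cells of Spleen-shPrmt9 stood at 1.98 CPM.

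The Pdcd1 ratio in CD4 T cells lay on opposite sides of 1 in the 2 tissues, at 1.67 in bone marrow and 0.639 in spleen, and so did that of Ctla4, at 0.928 and 1.04. With 1 library per arm and tissue the difference between tissues was not tested, and the bone marrow values come from 25 and 13 cells. When no Cd4 UMI was required of a CD4 T cell, the Pdcd1 ratios were 0.941 in bone marrow, from 69 and 43 UMIs, and 0.716 in spleen, both below 1, and those of Ctla4 were 0.737 and 1.22.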

How the results depend on the processing

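No paired analysis was possible because each group is 1 library and the labels give no replicate numbers. No ratio past 2-fold changed direction under the alternatives that gave a value, and 15 combinations of result and alternative gave none, since too few UMIs were left. The Lag3 ratio ranged over 30.8–58.8 in CD4 T cells of spleen, 40.9–74.1 in CD8 T cells of spleen, 23.6–36.9 in CD8 T cells of bone marrow and 1.20–2.69 in NK cells of spleen. With cells limited to at most 1 UMI of another lineage's markers, the Lag3 ratio in CD8 T cells of spleen was 74.1, the values past 2-fold numbered 5 in place of 8, and the values above 3 UMIs numbered 33 in place of 57. Thinning to 2000 UMIs left 32 values above 3 UMIs and gave a Lag3 ratio of 6.52 in B cells of spleen, and the mean of per-cell CPM gave 7.97 there and 1.37 for Ctla4 in CD4 T cells of spleen. Fewer cells and UMIs enter the first 2 settings by construction, and for the mean of per-cell CPM the cause was not tested. The Havcr2 ratio of 15.2 in CD8 T cells of spleen could not be computed without its highest cell. TMM factors moved log2 ratios by -0.16 in NK cells and 0.17 in B cells of spleen. Tigit and Havcr2 in T cells are limited by depth.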

Other observations

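Basophils of bone marrow also held Lag3 RNA, in 36 of 96 cells of BM-Ctrl and 45 of 98 of BM-shPrmt9. Their levels were 50.6 CPM (38.9–64.7) and 45.3 CPM (35.3–57.2), a ratio of 0.896 (0.628–1.28), so the libraries were not separated. In the same basophils Havcr2 stood at 4.82 and 12.3 CPM, from 6 and 19 UMIs, a ratio of 2.55 (0.980–7.81).

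Havcr2, which myeloid cells are known to carry, had 4 UMIs in 22 monocytes and macrophages of Spleen-Ctrl (19.2 CPM) and 12 in 43 of Spleen-shPrmt9 (28.9 CPM). Neutrophils of bone marrow had 4 Havcr2 UMIs in 4560 cells of BM-Ctrl and 38 in 7650 of BM-shPrmt9, a ratio of 3.87 (1.39–14.9), at levels of 0.111 and 0.430 CPM.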
